A study of Mus musculus with 150 samples.

Results

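Secretoglobins are small secreted proteins of the airway lining. The genes described here are Scgb1a1, Scgb3a1 and Scgb3a2, chosen by name as the secretoglobins of club cells, and they are 3 of the 31175 gene rows in the single-cell tables and of the 24341 rows in the bulk table. All 3 had rows in both kinds of table. The members were chosen from their known place in club cells and not from a threshold on measured values. Earlier results of these data were known when they were chosen.

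Mouse lung epithelial cells were measured on Fluidigm C1 chips, whose wells each take 1 cell for RNA sequencing, and in bulk libraries of sorted cells. The question put by the design is how airway progenitor cells behave when p53, the tumour suppressor transcription factor that Trp53 encodes, is lost. In the single-cell set, 61 cells from wells labelled p53-/- and 66 cells labelled wild type were kept, and the labels of both give tamoxifen at 250 mg/kg. The bulk set held 3 knockout libraries (replicates 7, 8 and 10) from mice with p53flox/flox alleles, and 3 wild-type libraries (replicates 1, 5 and 6) from p53+/+ mice. Both carried Scgb1a1-CreERTM, a Cre recombinase that tamoxifen switches on, and the Rosa26-mT/mG reporter, which turns to green fluorescence where Cre has acted. These mice were 8 to 12 weeks old, and the sorted cells were GFP-positive and EpCAM-positive, and negative for CD31, CD34, CD45 and the dead-cell dye 7AAD. The protocol names 70 days after tamoxifen, while the titles of the bulk libraries name day 30. Since Scgb1a1 itself drives the Cre, the bulk cells are those that expressed Scgb1a1 when the drug was given, and their descendants. Whether the captured single cells were fresh or cultured, and whether their deletion was full or induced, is not clear from the labels. Each genotype of the single-cell set is 1 chip with no animal named, so it counts as 1 sample and no test between the genotypes was made.

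Scgb1a1, also known as club cell secretory protein or uteroglobin, is a main product of club cells, the secretory cells of the conducting airways, and is the standard marker and Cre driver for their lineage. Scgb3a1 and Scgb3a2 are related secreted proteins of the airway epithelium, and Scgb3a2 is an early marker of the club cell lineage in the developing mouse lung. Transcription of secretoglobin genes in club cells is known to use the lung factor NKX2-1, forkhead factors such as FOXA1 and FOXA2, and C/EBP factors.

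In the GENCODE M21 annotation of GRCm38, Scgb1a1 is a protein-coding gene of 3 exons on the minus strand, at chr19:9083636-9087958. Scgb3a1 lies on the plus strand at chr11:49663610-49665118, with 2 annotated transcripts of at most 4 exons. The sequence table of RefSeq promoters (GRCm38.p6) matched 1 of the 3 genes, Scgb3a1, and the 250 bases before its RefSeq start are shown as the regulatory sequence at hand for the member whose levels split the cells. The window is chr11:49663345-49663594 on the plus strand, and capitals mark the motif matches found in it.
Scgb3a1: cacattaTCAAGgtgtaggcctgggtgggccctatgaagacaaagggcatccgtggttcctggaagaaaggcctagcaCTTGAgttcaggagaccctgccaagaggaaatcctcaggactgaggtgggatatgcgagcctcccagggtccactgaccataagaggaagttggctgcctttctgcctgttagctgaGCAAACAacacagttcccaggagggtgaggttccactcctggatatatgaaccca
The capitals are, from the 5′ end, TCAAG, the core of the NKX2-1 motif, beginning 243 bases before the start; CTTGA, the same core on the minus strand, at 172 bases; and GCAAACA, the minus-strand form of the forkhead motif TGTTTGC, at 55 bases. None of these 3 matches overlaps another. On both strands, TCAAG occurs in 35.9% of the 32851 windows of the same length, and TGTTTGC occurs in 4.3%. The forkhead motif TGTTTAC (3.17% of windows), the C/EBP motif TTGCNNAA (9.56%) and the TATA-box forms TATAAA (12.4%) and TATATA (5.25%) had no match with these letters in the Scgb3a1 window. A match is a description of letters and not a measured binding site.

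The single-cell values are TPM, the share of transcripts that a gene takes after correction for its length, deposited by the authors as a separate table for each genotype, with the ERCC spike-in RNAs included in the total. A gene was called detected at a TPM of at least 1. Kept cells labelled knockout had a median of 3580 detected genes (1819 to 5412) and wild-type cells a median of 3130.5 (1201 to 5245). Spike-ins took a median of 6.28% of TPM in cells labelled knockout (3.501% to 24.64%) and 13.22% in wild-type cells (4.592% to 79.7%), so a smaller part of the total was left for genes in the wild-type cells. The check of the labels by Trp53 differed between the data sets. In bulk, Trp53 averaged 8.73 ± 1.21 FPKM in knockout libraries and 20.2 ± 3.09 FPKM in wild-type libraries (SD, n = 3 each), without overlap. In single cells Trp53 was detected in 26.23% of the cells labelled knockout, with an exact binomial 95% interval of 15.8% to 39.07%, and in 6.061% of wild-type cells (1.676% to 14.8%). That order goes against the label, so the cells are called labelled knockout throughout, and each direction drawn from them below carries this limit. All binomial intervals given here cover counting error only. Read numbers are unknown from TPM and FPKM values.

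Cells were also sorted into a pair of ranges by marker genes that include none of the 3 members. In 33 of 61 cells labelled knockout (54.1%) and in 42 of 66 wild-type cells (63.64%), the mean log2(TPM + 1) of 20 club cell genes was above that of 14 alveolar type 2 genes, which mark the surfactant-producing cells of the alveolus. These are called cells with club genes ahead, and the other 28 and 24 are called cells with alveolar type 2 genes ahead. The split is a cut on a score and not a cell type: 4 cells labelled knockout and 6 wild-type cells with club genes ahead, and 3 and 2 on the other side, lay within 1 log2 unit of the cut. Endothelial genes (Pecam1, Cdh5, Cldn5, Egfl7) and fibroblast genes (Col1a1, Col1a2, Col3a1, Pdgfra) stayed under 1 TPM in every kept cell, as did Ptprc and Cd52 of 6 immune genes and 5 of 6 basal cell genes (all but Pdpn). The summed level of the immune genes had a median of 0 on both chips and a highest value of 5465 TPM in cells labelled knockout and 185.9 TPM in wild-type cells.

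Scgb1a1 had 1 TPM or more in every kept cell. For background, the negative off-chip control had 3.72 TPM, and a pair of wild-type wells with 99.491% and 99.32% of TPM in spike-ins, which were not kept, had 1596.3 and 4625.75 TPM, so the lowest values cannot be told apart from free RNA. Its level in cells labelled knockout ran from 16.19 TPM through a median of 332786 TPM to 605050 TPM, and in wild-type cells from 9.18 TPM through a median of 307204 TPM to 591276 TPM. It was the most abundant of all genes in 44 of 61 cells labelled knockout and in 46 of 66 wild-type cells. At 100 TPM or more it was found in 60 of 61 and 63 of 66 cells, and at 10000 TPM or more in 55 of 61 and 53 of 66. The highest values of the chips nearly coincide, and the chips overlap over almost the whole range, with a longer low tail in wild type.

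Scgb3a1 split the cells in a way that Scgb1a1 did not. It ran from 0 through a median of 782.3 TPM to 54837 TPM in cells labelled knockout, and from 0 through a median of 16.79 TPM to 71974 TPM in wild-type cells. Among cells labelled knockout, 26 lay at or below 2.73 TPM, 35 lay at or above 147 TPM, and none lay between. Of those 35 cells, 29 had 10000 TPM or more. The wild-type cells had no such gap: 22 lay under 1 TPM, 10 from 1 to under 10, 9 from 10 to under 100, 7 from 100 to under 1000, 6 from 1000 to under 10000, and 12 at 10000 TPM or more. At 100 TPM or more, Scgb3a1 was found in 57.38% of the cells labelled knockout (35 of 61, 95% interval 44.06% to 69.96%) and in 37.88% of wild-type cells (25 of 66, 26.22% to 50.66%), and the intervals overlap. The 10 highest cells held 48.23% of the summed Scgb3a1 TPM among cells labelled knockout and 84.15% among wild-type cells.

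Scgb3a2, a plus-strand gene with 3 annotated transcripts, lay between the other members in how widely it was found. Its level ran from 0 through a median of 11771 TPM to 62229 TPM in cells labelled knockout, and from 0 through a median of 4237 TPM to 35088 TPM in wild-type cells. At 100 TPM or more it was found in 86.89% of the cells labelled knockout (53 of 61, 75.78% to 94.16%) and in 74.24% of wild-type cells (49 of 66, 61.99% to 84.22%). As for Scgb3a1, no cell labelled knockout lay between 2.6 TPM and 173.1 TPM, while 5 wild-type cells had 10 to under 100 TPM.

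**Figure D1:**
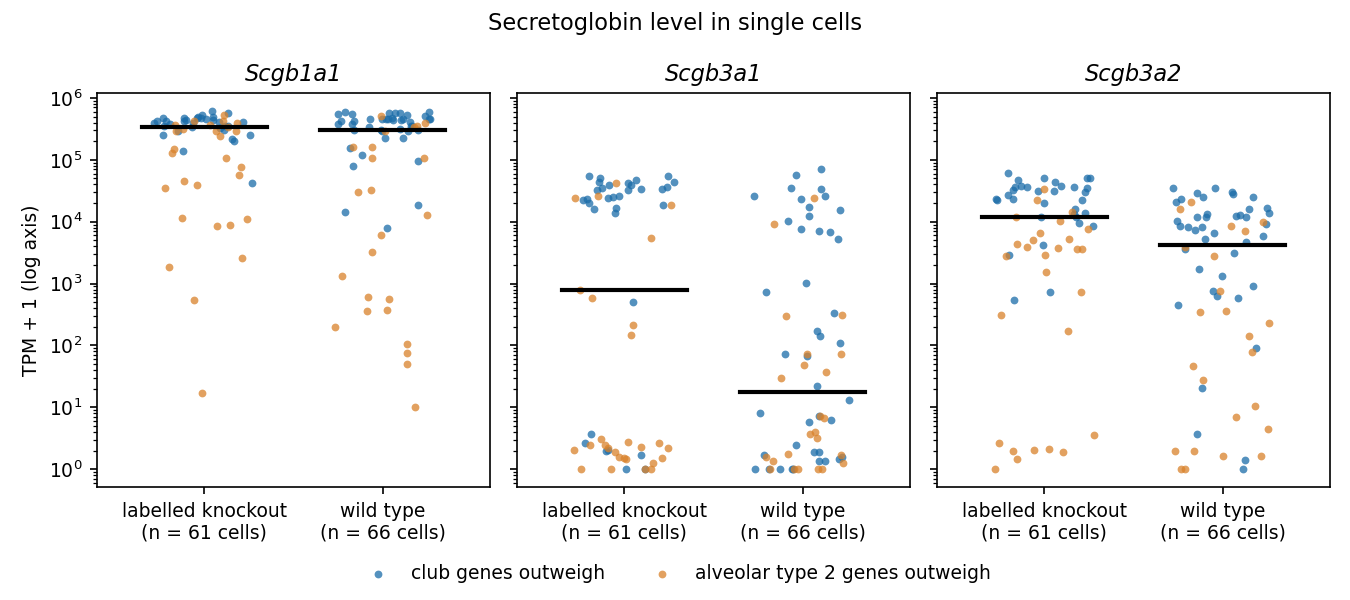
Level of Scgb1a1, Scgb3a1 and Scgb3a2 in each kept cell (TPM + 1, log axis), with the 61 cells labelled knockout left of the 66 wild-type cells in each panel; points are cells, coloured by which marker genes are ahead, and black bars are medians. Scgb1a1 lies above 100 TPM in nearly every cell of both chips, while Scgb3a1 leaves an empty span from 2.73 TPM to 147 TPM among cells labelled knockout that wild-type cells fill.

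Within single cells the order of the members was fixed at the top. Scgb1a1 was the highest of the 3 in all 61 cells labelled knockout and in all 66 wild-type cells. Scgb3a2 was above Scgb3a1 in 42 of 61 cells labelled knockout and in 51 of 66 wild-type cells. Where both had at least 100 TPM, Scgb3a2 was the higher in 19 of 35 cells labelled knockout and in 14 of 22 wild-type cells, so their order is close to even there.

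The share of a cell's message taken by the 3 transcripts together ran from almost nothing to most of it, and went with the marker range. Outside spike-ins, they made up a median of 48.93% of TPM (5.011% to 64.18%) in the 33 cells labelled knockout with club genes ahead, and 47.82% (1.203% to 66.69%) in the 42 such wild-type cells. In cells with alveolar type 2 genes ahead the medians were 13.89% in cells labelled knockout and 1.434% in wild-type cells, with values from 0.002017% to 56.83% and from 0.001152% to 56.21%. The summed share among cells with club genes ahead was thus nearly the same on both chips, but its make-up differed. In those cells Scgb3a1 stood at a median of 6.977% of the Scgb1a1 level on the chip labelled knockout and 0.042% on the wild-type chip, and Scgb3a2 at 7.638% and 2.105%.

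**Figure D2:**
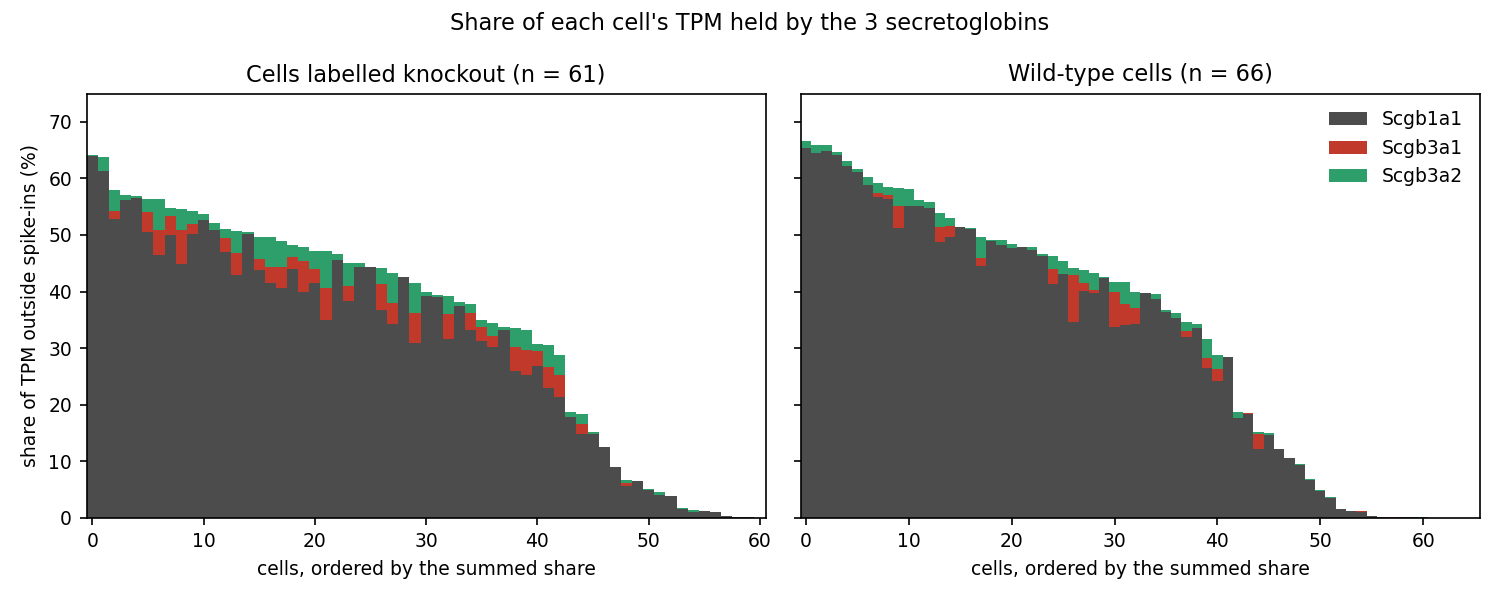
Share of each cell's TPM outside spike-ins (%) taken by Scgb1a1, Scgb3a1 and Scgb3a2, stacked, with 61 cells labelled knockout on the left and 66 wild-type cells on the right, each ordered by the summed share. Scgb1a1 forms the bulk of every tall bar on both chips, reaching sums of 64.18% and 66.69%, and the Scgb3a1 and Scgb3a2 parts appear in more of the cells labelled knockout.

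To set the chips side by side, the wild-type mean of log2(TPM + 1) was subtracted from that of the cells labelled knockout. A gene was counted as past the size used when this came to 1 or more in either direction and 30% or more of the cells on its higher chip had the gene detected. All 3 members were past it in the higher direction, where 16.8% of 4401 genes were past it, with 0.25% past it in the lower direction and a median difference over all these genes of 0.436. Scgb1a1 averaged 17.15 ± 2.80 in cells labelled knockout and 16.13 ± 4.11 in wild-type cells (mean log2 ± SD over 61 and 66 cells), a difference of 1.02. Scgb3a1 averaged 8.33 ± 6.77 and 5.83 ± 5.58, a difference of 2.50. Scgb3a2 averaged 11.72 ± 4.62 and 9.84 ± 4.89, a difference of 1.88. The spread between cells was wider than each of these differences. With spike-in rows taken out of the total, the Scgb1a1 difference was 0.783, and with only cells of at least 2000 detected genes it was 0.708, both under the size used. The log2 ratio of the mean TPM was 0.085 for Scgb1a1, 1.39 for Scgb3a1 and 1.07 for Scgb3a2, so Scgb1a1 on this linear scale was close to even. Divided by each well's summed spike-in TPM, the differences were 2.03, 3.50 and 2.91, where the median over all genes moved to 1.27.

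The marker ranges held different parts of these differences. Among cells with club genes ahead, Scgb1a1 had medians of 407527 TPM in cells labelled knockout and 416649 TPM in wild-type cells, a difference of mean log2 of 0.306, below the median of 0.502 over 4894 genes in those cells. Scgb3a1 had medians of 24899 TPM and 90.29 TPM there and a difference of 4.65, and it reached 100 TPM in 26 of 33 cells labelled knockout (78.79%, 61.09% to 91.02%) and in 21 of 42 wild-type cells. Scgb3a2 had medians of 26942 TPM and 8291 TPM and a difference of 2.56, and it reached 100 TPM in 33 of 33 and 37 of 42 cells. In that range 23.9% of genes were past the size used in the higher direction. Where alveolar type 2 genes were ahead the members stood in another order. Scgb1a1 had medians of 117281 TPM in cells labelled knockout and 9527 TPM in wild-type cells and a difference of 2.99. Scgb3a1 had medians of 1.37 TPM and 2.855 TPM there and a difference of 0.692, and Scgb3a2 had medians of 3210 TPM and 110.3 TPM and a difference of 2.11, against 20.5% of 4254 genes past the size used in the higher direction. The ranges also differed in depth. With club genes ahead, cells labelled knockout had a median of 3835 detected genes and 5.626% spike-ins, and wild-type cells 3130.5 and 11.34%, and with alveolar type 2 genes ahead the medians were 3344 genes and 8.821%, and 3064.5 genes and 19.14%. The part of depth, chip and spike-in share in these differences was not tested, and genotype and chip cannot be told apart.

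Secretoglobin transcripts were also abundant in cells whose alveolar type 2 genes were ahead. Scgb1a1 reached 1000 TPM in 26 of 28 such cells labelled knockout and in 15 of 24 such wild-type cells. Scgb1a1 and Sftpc, which encodes surfactant protein C of alveolar type 2 cells, both reached 10000 TPM in 30 of 61 cells labelled knockout and in 15 of 66 wild-type cells. Per the labels' protocol, wells seen to hold more than 1 cell had been discarded, and doublets were not called from the data. The part of doublets or shared RNA in these cells was not tested.

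Cells were then grouped by which members reached 100 TPM. All 3 did so in 35 of 61 cells labelled knockout (57.38%, 44.06% to 69.96%) and in 22 of 66 wild-type cells (33.33%, 22.2% to 46.01%). Scgb1a1 with Scgb3a2 and without Scgb3a1 was found in 18 cells labelled knockout and 27 wild-type cells, and Scgb1a1 alone in 7 and 11. Scgb1a1 with Scgb3a1 and without Scgb3a2 was found in 0 cells labelled knockout, which allows a share of up to 4.918%, taken as 3 cells of 61, and in 3 wild-type cells (4.545%). Spike-ins took 24.613%, 27.148% and 50.32% of TPM in these 3 wild-type cells, where the wild-type median was 13.22%. The members were therefore nested in most cells: of the cells with Scgb3a1 at 100 TPM, 35 of 35 labelled knockout and 22 of 25 wild type also had Scgb3a2 at 100 TPM, while of the cells with Scgb3a2 at that level 35 of 53 and 22 of 49 also had Scgb3a1. At the detection threshold of 1 TPM, all 3 were found in 46 of 61 (75.41%) and 40 of 66 (60.606%) cells.

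**Figure D3:**
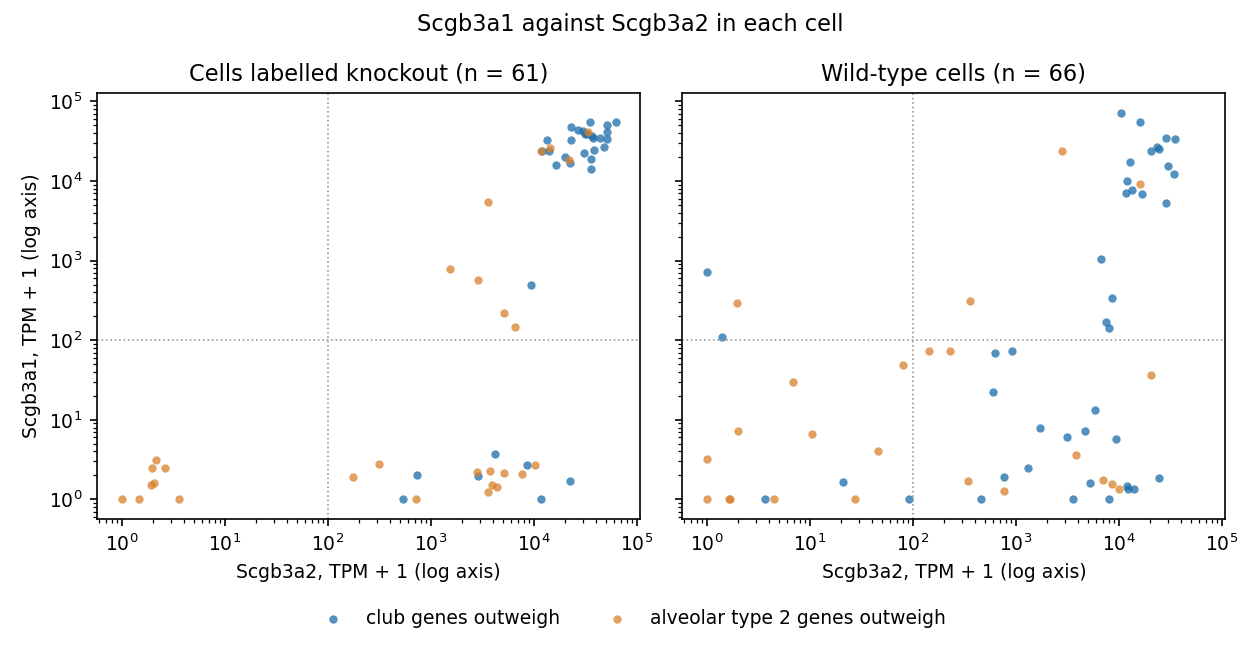
Scgb3a1 against Scgb3a2 in each kept cell (both TPM + 1, log axes; dotted lines at 100 TPM), with the 61 cells labelled knockout on the left and the 66 wild-type cells on the right, coloured by which marker genes are ahead. The upper left field, Scgb3a1 without Scgb3a2, holds 0 cells labelled knockout and 3 wild-type cells, and the lower right field, Scgb3a2 without Scgb3a1, holds 18 and 27.

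By Spearman's rho over cells labelled knockout, Scgb3a1 and Scgb3a2 varied together more than either did with Scgb1a1. Spearman's rho of Scgb3a1 and Scgb3a2 was 0.825 over the 61 cells labelled knockout and 0.518 over the 66 wild-type cells. For Scgb1a1 and Scgb3a2 rho was 0.456 in cells labelled knockout and 0.638 in wild-type cells. For Scgb1a1 and Scgb3a1 it was 0.165 and 0.109. Pearson's r of log2(TPM + 1) ordered the pairs otherwise in cells labelled knockout. It was 0.683 for Scgb3a1 and Scgb3a2, 0.768 for Scgb1a1 and Scgb3a2, and 0.396 for Scgb1a1 and Scgb3a1. In wild-type cells these values were 0.444, 0.748 and 0.284. Within cells with club genes ahead, Scgb3a1 and Scgb3a2 kept a positive rho (0.713 and 0.594), while Scgb1a1 and Scgb3a1 had a negative one (-0.50 in cells labelled knockout and -0.222 in wild-type cells). Scgb1a1 and Scgb3a2 there had -0.34 and 0.246. TPM is a share, so a cell with more of an abundant transcript has less of the total left for others. The part of this in the rho values was not tested. These cells share a chip and a library preparation, and rho with the spike-in share was -0.564 and -0.729 for Scgb1a1, -0.486 and -0.156 for Scgb3a1, and -0.629 and -0.594 for Scgb3a2, in cells labelled knockout and in wild-type cells. The values are descriptions, and cells of 1 chip are not independent samples.

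The genes most like each member differed between Scgb1a1 and the other members. Likeness was the smaller of the rho values on the 2 chips, over 4542 genes detected in at least 20% of the cells of each chip. The 5 genes nearest to Scgb1a1 were Cyp2f2 (rho 0.737 in cells labelled knockout and 0.743 in wild-type cells), Hp (0.662 and 0.722), Scnn1b (0.583 and 0.574), Gstm2 (0.573 and 0.73) and Prdx6 (0.571 and 0.627). Cyp2f2 encodes the cytochrome P450 that marks club cells, Hp haptoglobin, Scnn1b a subunit of the epithelial sodium channel, and Gstm2 and Prdx6 a glutathione transferase and a peroxiredoxin. Nearest to Scgb3a1 were Tff2 (0.863 and 0.751), Bpifa1 (0.845 and 0.695), Bpifb1 (0.837 and 0.693), Pdpn (0.754 and 0.673) and Reg3g (0.787 and 0.673). Tff2 is a trefoil peptide of mucus, Bpifa1 and Bpifb1 are secreted airway defence proteins, Reg3g is an antibacterial lectin and Pdpn encodes the membrane protein podoplanin. Among those nearest to Scgb3a2 were Mgst1 (0.778 and 0.76), Lypd2 (0.839 and 0.746), Chad (0.879 and 0.699) and Pon1 (0.757 and 0.695), where Mgst1 is a microsomal glutathione transferase, Chad the matrix protein chondroadherin and Pon1 paraoxonase.

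Over all 4542 genes, rho was positive on both chips for 1550 with Scgb1a1, 1507 with Scgb3a1 and 1852 with Scgb3a2, and negative on both for 1414, 1488 and 1143. Of 18 club cell genes detected widely enough, 18 had a positive rho with Scgb1a1 on both chips, 17 with Scgb3a2 and 12 with Scgb3a1, with median rho of 0.451, 0.37 and 0.24 in cells labelled knockout and 0.548, 0.464 and 0.119 in wild-type cells. Of 14 alveolar type 2 genes, 13 had a negative rho with Scgb1a1 on both chips, and 14 with each of the others. Of 11 genes for secreted airway proteins, 8 had a positive rho with Scgb3a1 on both chips, with medians of 0.787 and 0.61, 8 had one with Scgb3a2, with medians of 0.70 and 0.496, and 7 had one with Scgb1a1, with medians of 0.125 and 0.107. Lyz2, Chil1 and Lcn2 had a negative rho with each of the 3 members on both chips. Lyz2, the lysozyme gene that is also in the alveolar type 2 list, had a rho with Scgb1a1 of -0.738 in cells labelled knockout and -0.553 in wild-type cells. With Scgb3a2 its rho was -0.604 and -0.377.

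**Figure D4:**
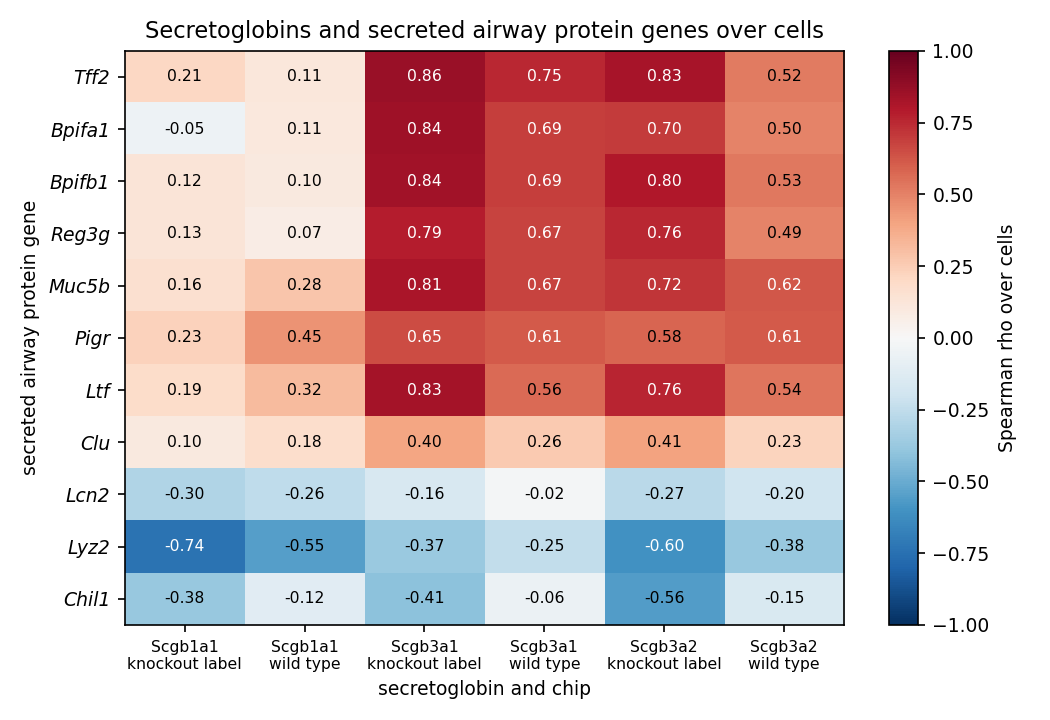
Spearman's rho over cells between each secretoglobin (columns, the chip labelled knockout left of the wild-type chip) and each of 11 secreted airway protein genes (rows), on a colour scale from -1 to 1. The Scgb3a1 and Scgb3a2 columns are strongly positive for Tff2, Bpifa1, Bpifb1, Reg3g, Muc5b, Pigr and Ltf, and the Scgb1a1 columns are near 0 for most of these genes. Lyz2, Chil1 and Lcn2 are negative in every column.

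Between the chips, 12 of 12 secreted protein genes were past the size used in the higher direction in cells labelled knockout, with a median difference of 2.61, and 7 of 18 club cell genes were, with a median of 0.707. Over all 4401 genes 16.8% were past it in that direction, with a median of 0.436. The lists were chosen with earlier results of these data known. Among the most abundant secreted genes, Bpifa1 averaged 15945 TPM in cells labelled knockout and 6330 TPM in wild-type cells (difference of mean log2 3.62), Reg3g 6919 and 2497 TPM (3.72), Bpifb1 5230 and 2131 TPM (3.24) and Lyz2 6780 and 5058 TPM (1.67). Clu, the clusterin gene, had the higher mean TPM in wild-type cells (661.2 in cells labelled knockout and 1151 in wild-type cells) but a difference of mean log2 of 2.70, and it was detected in 96.72% and 71.21% of cells. Marker genes of goblet cells, which make mucus, were past the size used in 4 of 4 counted, 3 of them also in the secreted list, and 5 of 14 alveolar type 2 genes were, with the summed level of that list at a median of 50441 TPM (326.4 to 453893) in cells labelled knockout and 6530 TPM (137.8 to 422001) in wild-type cells.

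Of 15 transcription factor and Notch pathway genes counted, 0 were past the size used, with a median difference of 0.456, where 16.8% of all genes were past it in the higher direction and the median of all genes was 0.436. Nkx2-1, whose product is a known activator of secretoglobin genes, averaged 9.938 TPM in cells labelled knockout and 29.28 TPM in wild-type cells (difference of mean log2 -0.712), and its rho with Scgb1a1 was -0.27 and -0.345. Elf3, an epithelial ETS factor, averaged 101.7 TPM in cells labelled knockout and 67.99 TPM in wild-type cells (difference of mean log2 0.878), and Notch2, the receptor that directs club cell fate, averaged 22.46 and 17.63 TPM (0.714). Etv5, an ETS factor of alveolar type 2 cells, averaged 45.06 and 28.59 TPM, and over cells its rho with Scgb1a1 was -0.608 in cells labelled knockout and -0.432 in wild-type cells. Foxp1 had rho values with Scgb1a1 of -0.35 and -0.168, and Foxa2 values of 0.075 and -0.236. Those of Elf3 were 0.18 and 0.162, and those of Notch2 were 0.12 and 0.502. Of 14 regulators, 8 had a positive rho with Scgb1a1 on both chips and 3 had a negative one. Over all 4542 genes these counts were 1550 and 1414. With Scgb3a1, 7 regulators were positive and 5 negative, beside 1507 and 1488 of all genes. With Scgb3a2, 8 were positive and 6 negative, beside 1852 and 1143.

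The rest of the secretoglobin family was sparse. Of 35 rows whose symbol begins with Scgb, 27 stayed under 1 TPM in every kept cell and 4 reached 1 TPM in at least 10 cells, the members and Scgb1c1. Scgb1c1, best known from olfactory mucosa, was detected in 24 of 61 cells labelled knockout and in 34 of 66 wild-type cells, with highest values of 948.4 and 644.3 TPM. Scgb2a2 reached 63.19 TPM in 1 cell labelled knockout and at most 0.5 TPM in wild-type cells. Scgb1b3, Scgb1b10 and Scgb1b19 stayed at or below 3.6 TPM.

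In bulk, the unit is FPKM, read fragments scaled by transcript length and library size, as deposited by the authors. Scgb1a1 has no bulk value: its entry is marked as low data in all 6 libraries in place of a number, so the gene could be neither ranked nor tested there. The mark gives no level and is not read here as low expression. In single cells Scgb1a1 was the most abundant gene in 44 of 61 cells labelled knockout and in 46 of 66 wild-type cells. Of 24 bulk rows whose symbol begins with Scgb, 18 lay at the lowest entry of 0.01 in every library, and the 3 with a numeric value that reached 1 FPKM were Scgb3a1, Scgb3a2 and Scgb1c1.

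Scgb3a1 had 10618, 20354 and 15666 FPKM in knockout replicates 7, 8 and 10, and 1473, 18473 and 25279 FPKM in wild-type replicates 1, 5 and 6. The knockout values lie inside the wild-type range, and wild-type replicate 1 is far below the other 5 libraries. The means were 15546 ± 4869 FPKM in knockout and 15075 ± 12262 FPKM in wild type (SD, n = 3 each). By limma on log2(FPKM + 1), fitted over 11957 genes with Benjamini-Hochberg adjustment, the difference was 0.77 with a standard error of 1.05 and a 95% interval of -1.73 to 3.26 (adjusted p = 0.806), and an exact permutation test, two-sided, gave p = 0.9. Over all genes 0.00836% were called at an adjusted p under 0.05, and 1566 had an unadjusted p under 0.05. Nothing in the labels says that the libraries came from separate animals, so these p-values measure the spread between libraries, and in bulk fewer cells of a type and less RNA per cell cannot be told apart.

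Scgb3a2 had 17859, 23810 and 28302 FPKM in knockout replicates 7, 8 and 10, and 8587, 37396 and 30075 FPKM in wild-type replicates 1, 5 and 6. Here too the groups overlap and wild-type replicate 1 is lowest. The means were 23323 ± 5239 FPKM in knockout and 25353 ± 14974 FPKM in wild type (SD, n = 3 each), with a log2 difference of 0.11, a standard error of 0.62 and a 95% interval of -1.37 to 1.59 (limma adjusted p = 0.963; exact two-sided permutation p = 1). The intervals of both members hold changes of more than 1 log2 unit in either direction, so neither sameness nor a change of that size was shown.

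Both were among the most abundant transcripts with a value in every library. Genes with a marked entry in any library (12), Scgb1a1 among them, were given no place. Scgb3a2 was in place 2 in all libraries but wild-type replicate 5, where it was in place 1, and Scgb3a1 was in place 3 in all but wild-type replicate 1, where it was in place 16. Scgb3a1 stood at 0.595, 0.855 and 0.554 times the FPKM of Scgb3a2 in knockout replicates 7, 8 and 10, and at 0.172, 0.494 and 0.841 times in wild-type replicates 1, 5 and 6. The mean log2 ratio was -0.61 ± 0.336 in knockout and -1.271 ± 1.167 in wild type (SD, n = 3 each; exact two-sided permutation p = 0.4). Scgb3a2 was above Scgb3a1 in all 6 libraries.

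Wild-type replicate 1 stood apart in its marker genes as well. The mean log2(FPKM + 1) of 19 club cell genes was 8.688, 8.745 and 8.898 in knockout replicates 7, 8 and 10, and 7.909, 8.962 and 8.882 in wild-type replicates 1, 5 and 6. That of 11 alveolar type 2 genes was 8.103, 8.221 and 8.043 in knockout and 9.675, 8.491 and 8.559 in wild type. Wild-type replicate 1 was thus lowest in club genes and highest in alveolar type 2 genes. These bulk means lack Cyp2f2 of the club list and Sftpc, Sftpa1 and Lyz2 of the alveolar type 2 list. All 3 knockout libraries also lay below all 3 wild-type libraries in the alveolar type 2 mean. Of these 11 genes 0 had a log2 difference above 0 and 0 were called by limma, 7 did not overlap where 19.3% of all genes did not, and the median was -0.72. Without wild-type replicate 1, the difference was -0.525 with a standard error of 0.337 for Scgb3a1 and -0.549 with a standard error of 0.298 for Scgb3a2, with limma adjusted p-values of 0.50 and 0.418. Scgb3a2 also turned to -0.046 without knockout replicate 10 and to -0.158 under quantile normalization, so the direction of both members in bulk rests on single libraries and, for Scgb3a2, on the scaling. Among the other marker lists with several genes tested, those of ciliated, goblet, immune and fibroblast genes also lay on a single side of 0. Each had 0 calls by limma. Goblet genes were above 0 in 7 of 7, with a median log2 difference of 0.537, where 6156 of all 11957 genes were above 0. The genotypes overlapped for each of these 7 genes. The mean log2(FPKM + 1) of the goblet list was 4.068, 5.113 and 4.347 in knockout replicates 7, 8 and 10. It was 2.395, 4.865 and 4.858 in wild-type replicates 1, 5 and 6, so wild-type replicate 1 was again the low library. Of 3 fibroblast genes 0 were above 0, with a median of -0.526. Ciliated cell genes were above 0 in 10 of 10, with a median log2 difference of 1.36. Their summed levels were 1234 to 1809 FPKM in knockout and 715.4 to 1215 FPKM in wild type. Of these 10 genes 4 did not overlap, where 19.3% of all genes did not. Their mean log2(FPKM + 1) did overlap, with 5.403 in knockout replicate 10 and 5.513 in wild-type replicate 1. Immune genes were below 0 in 6 of 6, with a median of -0.919 and summed levels of 31.62 to 51.97 FPKM in knockout and 62.84 to 91.27 FPKM in wild type. The part of alveolar type 2, ciliated, goblet, immune and fibroblast cells in the secretoglobin values was not tested.

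**Figure D5:**
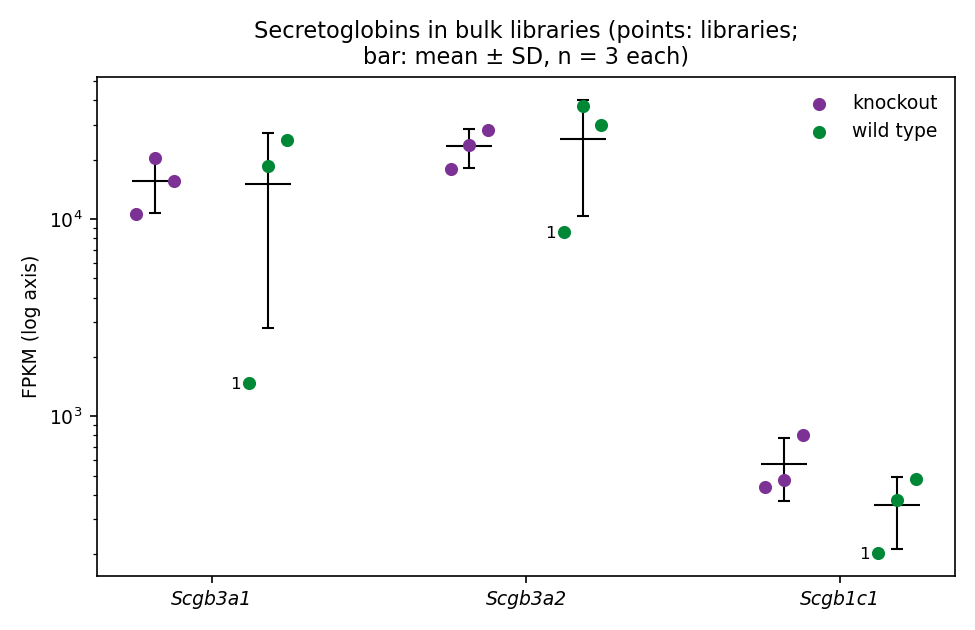
FPKM (log axis) of Scgb3a1, Scgb3a2 and Scgb1c1 in each bulk library, knockout left of wild type; points are libraries, bars are the mean and whiskers the SD (n = 3 each); the digit beside a point marks wild-type replicate 1. The genotypes overlap for each gene, and wild-type replicate 1 is lowest for all 3 genes, at 1473 FPKM for Scgb3a1.

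Scgb1c1 had 438.9, 475.3 and 802 FPKM in knockout replicates 7, 8 and 10, and 202.8, 376.5 and 481.2 FPKM in wild-type replicates 1, 5 and 6, with overlapping groups. Its log2 difference was 0.73 with a standard error of 0.37 (limma adjusted p = 0.450; exact two-sided permutation p = 0.3). The bulk locus of this row spans the neighbouring gene Urah and an antisense gene, so its reads may not all be from Scgb1c1.

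In bulk the secreted protein genes and regulators had 0 calls by limma among 11 and 20 tested, against 1 call among all 11957 genes. At an unadjusted p under 0.05 there were 0 secreted genes and 2 regulators. The secreted genes had a median log2 difference of 0.598, with 9 of 11 above 0, where all genes had a median of 0.008 and 6156 of 11957 above 0. Bpifa1 averaged 8888 ± 3284 FPKM in knockout and 8214 ± 6239 FPKM in wild type (SD, n = 3 each), and Bpifb1 averaged 3301 ± 1306 and 3116 ± 2416 FPKM, both with wide overlap. The summed level of the secreted list was 12120, 23230 and 20090 FPKM in knockout replicates 7, 8 and 10, and 4722, 26790 and 22490 FPKM in wild-type replicates 1, 5 and 6, the same low library as for Scgb3a1 and Scgb3a2. Of the regulators, Cebpa, Etv5, Foxa2 and Sp1 had all 3 knockout libraries below all 3 wild-type libraries, 4 of 20, a share near the 19.3% of all genes that did not overlap in either direction. Etv5 averaged 87.9 ± 21.1 FPKM in knockout and 208 ± 153 FPKM in wild type (log2 difference -1.03, standard error 0.465, limma adjusted p = 0.402), and Cebpb, Elf3, Foxa1 and Klf5 overlapped.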

How the data were processed

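The authors deposited single-cell values as TPM and bulk values as FPKM. The submitters' processing notes name RSEM 1.2.20, Bowtie 1.1.1 and GRCm38 for the cells, and TopHat with Bowtie2, Cufflinks and mm10 for bulk. Wells held 92 ERCC spike-in RNAs and bulk reads were of 75 nucleotides, per the labels' protocols. The number of reads is unknown for both units, so no count test was used and precision is given by cells or libraries.

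The members and gene lists were chosen with earlier results of these data known. Wells with a debris or valve remark (3 labelled knockout, 1 wild type), off-chip controls and cells under 1000 detected genes (3 and 6) were left out. A further 2 of the 66 sample records of cells labelled knockout matched no table column and are not used here. Their titles name the same wells as those of records that were used, so they may not be further cells. Single-cell differences are of mean log2(TPM + 1), with no test, and the tables of the genotypes were made separately. The bulk test was limma's (version 3.58.1, R 4.3.3, robust eBayes with a trend, adjusted p under 0.05) on log2(FPKM + 1), for genes that 3 or more libraries had at 1 FPKM or above; this scale understates changes of low genes. The limma step was checked on simulated data. The smallest exact p of 3 against 3 is 0.1. Genes with a marked entry in any library (12) were left out. Named genes were the members, other secretoglobins, the 5 most like each member (1 of these is not reported here), and up to 5 of each list by mean level. Sftpc, Nkx2-1 and the bulk regulators named because their libraries did not overlap were chosen after their values were seen. Alternatives were the pseudocount, filters, scalings, spike-in handling, marker range and leaving out each library, computed in Python 3.11.15 and R.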

Additional observations from a re-analysis of the deposited data

Results flagged for a closer look

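Scgb1a1 had signal in the wells that entered no comparison. The negative off-chip control of the chip labelled knockout had 3.72 TPM of Scgb1a1, with 99.998% of its TPM in spike-ins. The positive off-chip control had 491987 TPM of Scgb1a1, with 27431 TPM of Scgb3a1 and 39884 TPM of Scgb3a2. The wells left out for a debris or valve remark had 327034, 442213 and 309356 TPM of Scgb1a1 where labelled knockout, and 430763 TPM where labelled wild type. No group held 4 to 10 samples, and no sample was tested as standing apart from its group.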

How the results depend on the processing

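No paired analysis was possible because the bulk genotypes share no replicate number and each single-cell genotype is 1 chip. In bulk, Scgb3a1 (0.77) turned to -0.179 with estimated library weights, and leaving out 1 library gave -0.525 (without wild-type replicate 1) to 1.525. Scgb3a2 (0.11) turned to -0.158 under quantile normalization and -0.58 with library weights, and leave-one-out values ran from -0.549 (without wild-type replicate 1) to 0.512, with -0.046 without knockout replicate 10. Neither was called under any alternative. Genes called over the table (1) were 2 with a pseudocount of 0.1, 0 with 10, 3 without a filter, 913 with library weights (654 higher), and 0 to 407 with 1 library left out, the last without wild-type replicate 1 (344 higher). The causes were not tested.

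Single-cell differences kept their sign under all alternatives run. Those of Scgb1a1, Scgb3a1 and Scgb3a2 were 2.03, 3.50 and 2.91 divided by spike-ins, 0.085, 1.39 and 1.07 as log2 ratio of mean TPM, and 0.306, 4.65 and 2.56 with club genes ahead; with alveolar type 2 genes ahead Scgb1a1 had 2.99 and Scgb3a1 0.692. Scgb1a1 was 0.783 without spike-in rows and 0.708 with at least 2000 detected genes, both under the size used. The share of cells with all 3 members was 90.164% and 81.818% (labelled knockout, wild type) at any TPM, 57.377% and 45.455% at 10 TPM, and 57.377% and 33.333% at 100 TPM. With club genes ahead, rho turned to -0.34 for Scgb1a1 and Scgb3a2 in cells labelled knockout. For Scgb1a1 and Scgb3a1 it turned to -0.50 and -0.222 on the chips labelled knockout and wild type. Over all kept cells labelled knockout, Pearson's r was 0.768 for Scgb1a1 and Scgb3a2, above the 0.683 of Scgb3a1 and Scgb3a2.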

Other observations

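Of the 6 wild-type wells under 1000 detected genes, 2 had 99.491% and 99.32% of their TPM in spike-ins, and in these Scgb1a1 still made up 31.36% and 68.03% of the TPM left for genes (1596.3 and 4625.75 TPM). The 3 wells labelled knockout under that minimum had 358007, 473826 and 437683 TPM of Scgb1a1. In the negative off-chip control Scgb3a1 had 0.21 TPM, Scgb3a2 was listed at 0 and Sftpc had 3.22 TPM.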
